A study of Mus musculus with 8 samples.

Results

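The Sfmbt2 locus on mouse chromosome 2 was read almost entirely from the paternal allele in single embryonic day 3.5 (E3.5) blastocysts. The locus is represented by 3 of the 22810 genes of the count data, which were chosen by their symbols: Sfmbt2 itself, the non-coding gene Gm13261 at its start, and Mir669d, a microRNA gene inside it. Together with SNP-covering reads only, Sfmbt2 had 3521 paternal and 16 maternal reads over 8 embryos, Gm13261 had 861 and 6, and Mir669d had 30 and 0.

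SFMBT2 is a chromatin protein with MBT domains that belongs to the Polycomb group and can associate with the DNA-binding protein YY1. The gene is known as an imprinted, paternally expressed gene of the early embryo and the placenta, where it is needed for trophoblast development. An intron of Sfmbt2 holds a large cluster of microRNA genes of the miR-297, miR-466, miR-467 and miR-669 families. Genomic imprinting restricts transcription to the allele of 1 parent, and the Sfmbt2 imprint is of the noncanonical kind, in which Polycomb-deposited H3K27me3 inherited from the oocyte marks the maternal allele.

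The embryos came from reciprocal natural matings of C57BL/6 (B6, Mus musculus domesticus) and Mus musculus castaneus (cast), without culture. The forward cross had a B6 mother and a cast father (3 embryos, numbered 1, 2 and 3). The reverse cross had a cast mother and a B6 father (5 embryos, numbered 1, 2, 3, 5 and 7). All embryos carried both strain alleles and no engineered allele, were not matched for sex, and were whole blastocysts in which fewer cells of a type and less RNA per cell cannot be told apart. The maternal allele was B6 in the forward cross and cast in the reverse cross, so that each cross differed from the other in the strain of both parents and in the strain of the active allele at the same time.

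Each embryo held between 1060063 and 1632695 SNP-covering reads, of which 57.4% to 58.3% were from the B6 allele. All 10 trophectoderm markers and all 10 inner cell mass markers examined passed the filter on low counts. Reverse embryo 1 stood apart in its trophectoderm markers, whose summed level was 1401 reads per 1000000 SNP-covering reads of the embryo (RPM) against 4050 to 5372 in the other embryos. Most reads of this sum were of the keratin genes Krt8 (18849 over all embryos) and Krt18 (14877), against 4240 for the next gene, Gata3, and 148 for Cdx2. Forward embryo 1 stood apart in 10 leukocyte markers, whose summed level was 696 RPM, 99.7% of it maternal, against 4.72 to 42.5 in the other embryos. Most of these leukocyte reads came from Lyz2, the lysozyme of macrophages and granulocytes. Lists of 10 oocyte, 10 cumulus and granulosa, and 10 uterus and oviduct genes summed to 8.68 to 26.9, 4.0 to 22.0 and 84.5 to 179 RPM over all embryos.

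On the GRCm38 (mm10) assembly, Sfmbt2 (ENSMUSG00000061186.15) spans chr2:10370510-10595253 on the plus strand. Gm13261 (ENSMUSG00000086748.1) spans chr2:10339283-10374041 on the minus strand in GENCODE, and the spans of the pair overlap by 3532 bases at their 5′ ends. Its first exon lies in an intron of Sfmbt2, and 0 of its 4 exons overlap an exon of Sfmbt2. In RefSeq Gm13261 spans chr2:10327340-10365161 and lies 5278 bases from Sfmbt2. Mir669d (ENSMUSG00000077834.1) spans chr2:10468343-10468463 on the plus strand, within intron 10 (chr2:10461473-10523944) of the 23-exon transcript Sfmbt2-201. In GENCODE 119 microRNA genes are annotated inside Sfmbt2. Whether the counting used strand was not stated in the sources used here, and the annotation behind the counts was not given, so that intronic reads of Sfmbt2 and reads of the genes it overlaps cannot be told apart.

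The windows around the RefSeq starts are shown because reads of Sfmbt2 and of Gm13261 were compared with each other below. Each is 250 bases before to 50 bases after a start, written 5′ to 3′ on the strand of the gene, from RefSeq on GRCm38.p6, with CG dinucleotides in capitals. Sfmbt2 matched 2 windows, at chr2:10370201-10370500 and chr2:10372186-10372485 on the plus strand. Of the 3 overlapping windows of Gm13261, the outermost, at chr2:10365112-10365411 on the minus strand, is shown.
Sfmbt2 first start: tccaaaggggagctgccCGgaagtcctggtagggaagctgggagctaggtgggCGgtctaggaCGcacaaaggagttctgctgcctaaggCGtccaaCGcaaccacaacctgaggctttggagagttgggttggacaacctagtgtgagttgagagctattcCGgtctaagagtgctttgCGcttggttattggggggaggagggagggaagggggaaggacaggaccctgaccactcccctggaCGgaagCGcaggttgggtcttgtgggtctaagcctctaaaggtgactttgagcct
Sfmbt2 second start: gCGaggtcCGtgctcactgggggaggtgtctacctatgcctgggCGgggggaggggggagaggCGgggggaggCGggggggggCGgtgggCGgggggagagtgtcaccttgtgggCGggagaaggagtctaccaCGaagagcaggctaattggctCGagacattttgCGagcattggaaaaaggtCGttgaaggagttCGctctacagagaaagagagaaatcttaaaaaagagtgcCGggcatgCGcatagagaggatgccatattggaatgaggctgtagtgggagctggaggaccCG
Gm13261 start: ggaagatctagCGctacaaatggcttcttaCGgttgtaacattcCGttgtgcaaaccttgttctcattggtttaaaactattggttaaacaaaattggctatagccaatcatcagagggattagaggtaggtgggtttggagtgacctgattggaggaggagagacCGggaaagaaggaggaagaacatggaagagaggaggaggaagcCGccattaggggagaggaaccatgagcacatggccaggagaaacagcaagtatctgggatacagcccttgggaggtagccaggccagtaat
The first Sfmbt2 window held 9 CG dinucleotides and a GC content of 57.7%, and the second held 16 and 60%. The Gm13261 window held 5 CG dinucleotides and a GC content of 48%. The median over the 32851 windows of the promoter set was 7, and 54.2%, 67.0% and 38.0% of all windows held fewer CG dinucleotides than these windows in turn. The letters CCGCCAT, a core of the YY1 motif, were searched on both strands. They occurred in none of the Sfmbt2 windows and once in each of the overlapping Gm13261 windows, at position 209 of the window shown, counted from its 5′ end. Of all windows, 4.05% held the motif. A match in a window is a match of letters only.

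Sfmbt2 was paternal in every embryo. In the forward cross its maternal and paternal reads were 2 and 682 in embryo 1, 7 and 269 in embryo 2, and 3 and 234 in embryo 3. In the reverse cross, embryo 1 had 4 maternal and 1204 paternal reads, and the other embryos had 0 maternal reads with 397 (embryo 2), 165 (embryo 3), 349 (embryo 5) and 221 (embryo 7) paternal reads. Maternal and paternal values did not overlap in any embryo or between embryos, and 4 of the 5 reverse embryos had no read of the cast maternal allele. By 3 counts per embryo, a count of 0 allowed a maternal share of up to 0.756% in reverse embryo 2, which was the deepest of these 4 embryos for Sfmbt2, and up to 1.82% in reverse embryo 3, the shallowest. Here and for the other genes counting intervals and limits cover counting error only, as the reads carried no molecular identifiers.

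The paternal share of Sfmbt2 reads was 98.6% ± 1.13 (SD, n = 3) in the forward cross and 99.9% ± 0.148 (SD, n = 5) in the reverse cross. By embryo it was 99.7% (embryo 1), 97.5% (embryo 2) and 98.7% (embryo 3) for the forward cross, 99.7% for reverse embryo 1 and 100% in the other reverse embryos. Of the summed reads, 1.0% were maternal in the forward cross (12 of 1197, exact 95% interval 0.519% to 1.74%). In the reverse cross 0.171% were maternal (4 of 2340, exact 95% interval 0.0466% to 0.437%). The intervals of the crosses did not overlap, but they treat the reads of different embryos as independent. Forward embryo 1, with the high level of leukocyte markers from the maternal allele, had the lowest maternal share of Sfmbt2 reads in its cross, at 0.292%. Gm13261 had its highest maternal share of all embryos there, at 5% (2 of 40 reads). Whether the maternal reads at the locus are related to the leukocyte markers was not tested.

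Gm13261, a non-coding gene transcribed away from Sfmbt2, was also paternal in every embryo. Its maternal and paternal reads were 2 and 38, 0 and 53, and 1 and 32 in the forward embryos in order. Over reverse embryos 1, 2, 3, 5 and 7 its maternal reads were 0, 0, 2, 0 and 1, and its paternal reads were 281, 163, 83, 102 and 109. The largest maternal count was 2 and the smallest paternal count was 32. The embryos without a maternal read allowed a maternal share of 1.07% (reverse embryo 1) to 5.66% (forward embryo 2). In the forward cross 97.3% ± 2.52 (SD, n = 3) of its reads were paternal, against 99.3% ± 1.03 (SD, n = 5) for the reverse cross. Over both crosses 0.692% of the reads were maternal (6 of 867, exact 95% interval 0.254% to 1.5%).

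Mir669d had few reads. In the forward cross its paternal reads were 3, 1 and 3, and in the reverse cross they were 10, 10, 0, 0 and 3 in embryos 1, 2, 3, 5 and 7. All 30 reads were paternal, in 6 of 8 embryos. A maternal count of 0 of 30 allows, by 3 counts over all embryos, a maternal share of up to 10%. The libraries were made from polyadenylated RNA, so that these reads are of longer transcripts over the gene and not of the mature microRNA.

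The other rows of the same microRNA families pointed to the same allele. Of the families named above, 5 rows were present and all 5 lie inside Sfmbt2. Beside Mir669d these were Mir466l with 4 reads, Mir669e with 2, Mir669i with 2 and Mir669a-3 with 1. All 9 reads of these 4 rows were paternal, and none of the 4 reached the 10 reads in a library that the tests required.

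**Figure D1:**
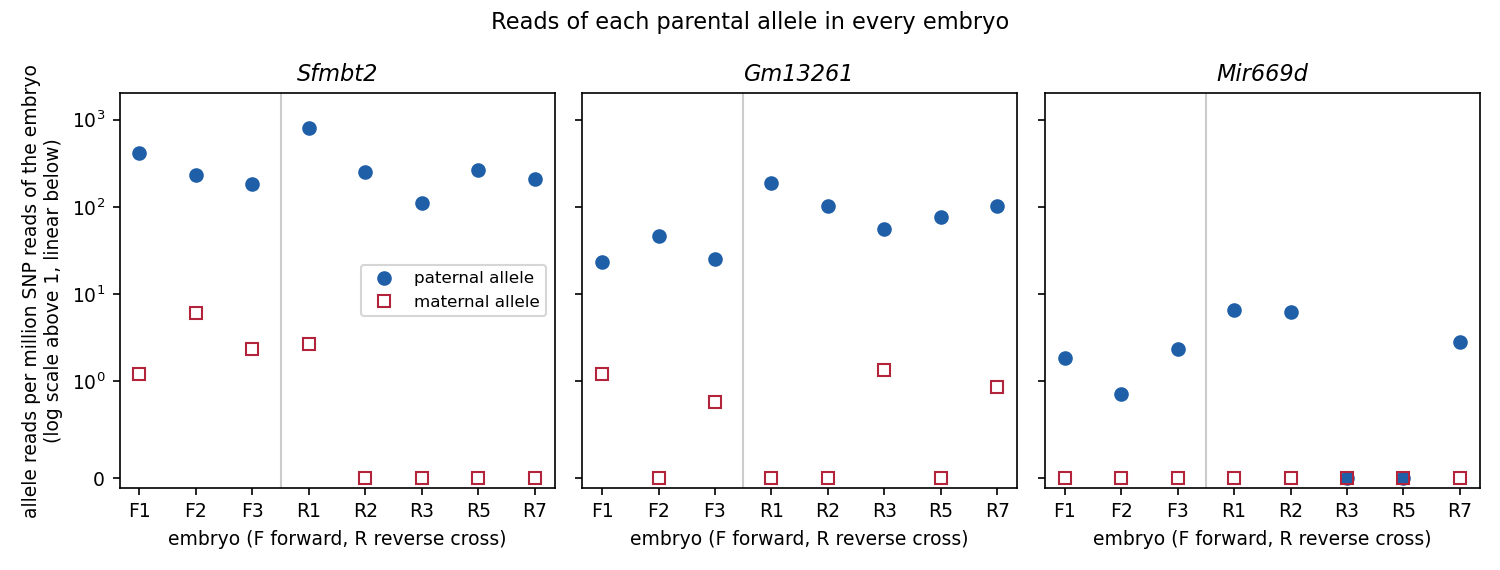
RPM of the embryo for the paternal (filled circles) and maternal (open squares) allele of Sfmbt2, Gm13261 and Mir669d in 3 forward (F) and 5 reverse (R) embryos, on an axis that is logarithmic above 1 and linear below. The paternal values of Sfmbt2 lie between 110 and 800 and its maternal values between 0 and 6.08; reverse embryos 3 and 5 have no read of Mir669d from either allele.

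The parental difference was then tested across all autosomal genes with at least 10 reads in 1 of the 16 allele libraries, with allele strain entered as a further term. Paternal over maternal, Sfmbt2 differed by a log2 fold change of 7.50 ± 0.58 (SE; adjusted p = 2.71e-08, edgeR's quasi-likelihood test with Benjamini-Hochberg adjustment). Gm13261 differed by 6.46 ± 0.51 (SE; adjusted p = 3.01e-08, same edgeR test). Mir669d stood at 4.69 ± 1.32 (SE) and did not pass the threshold of 0.1 (adjusted p = 0.147, same edgeR test). This fold change depends on the value that the fit adds to a count of 0.

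Of the 3 genes, 2 were thus called, both toward the paternal allele. Of the 12566 genes tested, 1.42% were called in either direction and 1.11% toward the paternal allele. With a term for each embryo, which sets the alleles of an embryo against each other, 391 genes were called in place of 178, and the same pair of the 3 genes was called. The definition of blastocyst-imprinted expression (BiX) in the study ends, after the parental test and minimum read numbers, with a ratio of at least 70:30 reached by at least 60% of embryos per cross. For Sfmbt2 and Gm13261 this ratio held in 3 of 3 forward and 5 of 5 reverse embryos. Mir669d met the ratio in 3 of 3 forward and 3 of 5 reverse embryos, the remaining reverse embryos having no read, but with 7 forward reads and no parental call it did not meet the earlier steps.

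The strain term of the same fit compares cast with B6 alleles. For a gene read from the father alone it sets the cast allele of the forward embryos against the B6 allele of the reverse embryos, so that strain and cross cannot be told apart. Across all genes 15.4% were called for strain. Gm13261 was lower on the cast allele, with a log2 fold change of -1.22 ± 0.46 (SE; adjusted p = 0.0926, edgeR's quasi-likelihood test), and Sfmbt2 (-0.29 ± 0.48 SE, adjusted p = 0.797) and Mir669d (-0.39 ± 1.25 SE, adjusted p = 0.910) did not pass the threshold in this edgeR test. With the term for each embryo the level of an embryo is taken out. The strain term then compares the ratio of paternal to maternal reads between the crosses, not the level of the active allele. In that edgeR fit the call of Gm13261 was lost (-0.89, adjusted p = 0.403) and Sfmbt2 passed the threshold (-0.95, adjusted p = 0.0955), while 3212 genes were called in place of 1935. For Sfmbt2 this ratio rests on 12 maternal of 1197 reads in the forward and 4 of 2340 in the reverse cross. The Gm13261 call was also lost without forward embryo 1 (adjusted p = 0.404), forward embryo 3 (0.310), reverse embryo 2 (0.170), reverse embryo 5 (0.136) or reverse embryo 7 (0.132).

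The level of Sfmbt2, as the RPM of both alleles together, was 419, 240 and 186 in the forward embryos in order. Over reverse embryos 1, 2, 3, 5 and 7 it was 803, 248, 110, 262 and 208. The crosses overlapped, averaging 281 ± 122 (SD, n = 3) for the forward against 326 ± 273 (SD, n = 5) for the reverse cross, and the embryos of the reverse cross spanned a 7.29-fold range. Without reverse embryo 1 the reverse mean was 207 ± 68.6 (SD, n = 4).

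Reverse against forward, the total of Sfmbt2 stood at a log2 fold change of 0.16 ± 0.48 (SE; adjusted p = 0.967, edgeR's quasi-likelihood test). Without reverse embryo 1 the value changed sign to -0.39 (adjusted p = 0.611, edgeR), and without forward embryo 3 it was -0.06 (adjusted p = 0.996, edgeR). Across all 13079 genes tested between the crosses 0.0688% were called. None of the 3 genes was called, and 1 of them, Gm13261, had an unadjusted p under 0.05, as did 958 of all genes tested.

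Reverse embryo 1 had the highest level of Sfmbt2 and the lowest summed level of trophectoderm markers, a sum made up mostly of Krt8 and Krt18. The part of its cell type makeup in the level of Sfmbt2 was not tested. Sfmbt1, the close relative of Sfmbt2, was also highest there, at 116 RPM against 20.7 to 50.2 in the other embryos, and was read from both parents (275 maternal and 197 paternal reads). The 10 paternally expressed genes compared below summed to 1584 RPM there against 422 to 1058 in the other embryos, and a list of MBT-domain and Polycomb genes summed to 1894 against 637 to 1149. Inner cell mass markers summed to 1129 RPM in reverse embryo 1, within the range of 767 to 1289 over the other embryos.

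**Figure D2:**
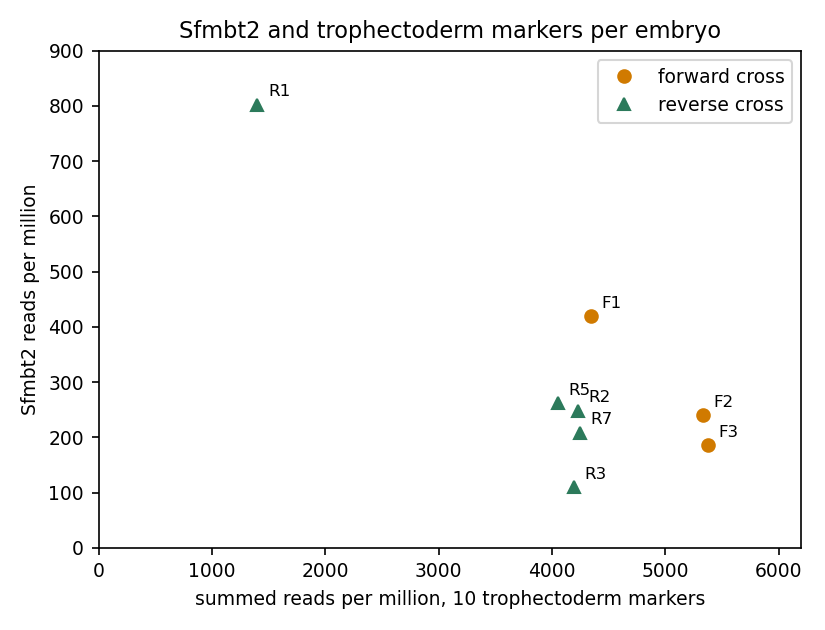
Sfmbt2 level (RPM, y axis) against the summed level of 10 trophectoderm markers (RPM, x axis; mostly Krt8 and Krt18 reads) in each forward (circles) and reverse (triangles) embryo. Reverse embryo 1 (R1) lies alone at 803 for Sfmbt2 and 1401 for the markers, and the other embryos lie between 110 and 419 for Sfmbt2.

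The level of Gm13261 was 24.5, 46.0 and 25.8 RPM in the forward embryos in order. Over reverse embryos 1, 2, 3, 5 and 7 it was 187, 102, 56.7, 76.6 and 104. All reverse embryos lay above all forward embryos, with means of 105 ± 49.6 (SD, n = 5) and 32.1 ± 12.1 (SD, n = 3). How many of all genes separated the crosses in this way was not counted. For any gene that does, an exact permutation test of 3 against 5 embryos gives its smallest p, 0.0357. The log2 fold change of reverse over forward was 1.68 ± 0.40 (SE), which did not pass the threshold (adjusted p = 0.249, edgeR's quasi-likelihood test). It passed with DESeq2 (1.71, adjusted p = 0.0105) and without reverse embryo 1 (1.45, adjusted p = 0.0470, edgeR). Without reverse embryo 1 the reverse mean was 84.8 ± 22.4 (SD, n = 4), and the values of the crosses still did not overlap.

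Since every embryo carried the same SNPs, reads of the neighbouring genes were set against those of Sfmbt2 within each embryo. Nearly all these reads were of the cast allele in the forward cross and of the B6 allele in the reverse cross. Whether the strains differed in how their reads aligned to mm10 at these genes was not tested. Gm13261 had 5.85, 19.2 and 13.9 reads per 100 Sfmbt2 reads in the forward embryos in order, and 23.3, 41.1, 51.5, 29.2 and 49.8 in reverse embryos 1, 2, 3, 5 and 7. The reverse embryos were all above the forward embryos, with means of 39.0 ± 12.5 (SD, n = 5) and 13.0 ± 6.73 (SD, n = 3), a 3.00-fold ratio. How many of all genes separated the crosses in their ratio to Sfmbt2 was not counted. In an exact permutation test over embryos (two-sided) p was 0.0357, the smallest that 3 against 5 embryos allow, and adjusted over the 2 genes compared it was 0.0714. The lowest reverse value was that of reverse embryo 1, in which Sfmbt2 was highest.

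Mir669d had 0.439, 0.362 and 1.27 reads per 100 Sfmbt2 reads in the forward embryos, and 0.828, 2.52, 0, 0 and 1.36 in reverse embryos 1, 2, 3, 5 and 7. The crosses overlapped, with means of 0.689 ± 0.501 (SD, n = 3) and 0.941 ± 1.05 (SD, n = 5). In the exact permutation test p was 0.750, and without reverse embryo 2 the difference changed sign to -0.143. At 0 to 10 reads an embryo, a difference in Mir669d was not detectable at this depth.

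**Figure D3:**
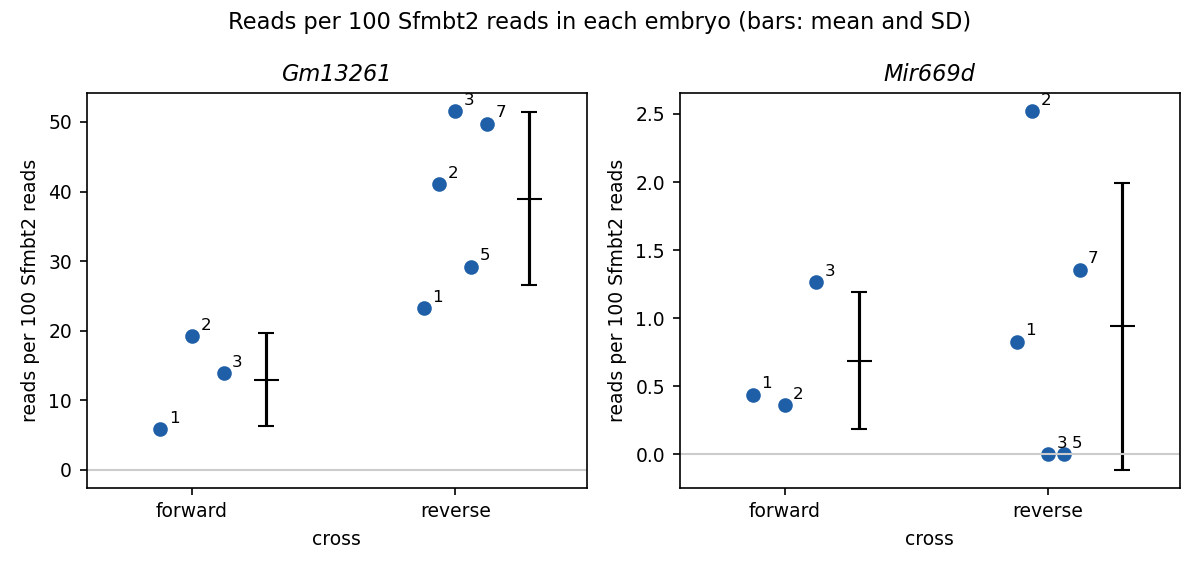
Reads of Gm13261 (left) and Mir669d (right) per 100 Sfmbt2 reads in each embryo, with the embryo number beside each point and the mean and SD of each cross as bars. The reverse embryos lie at 23.3 to 51.5 for Gm13261, above the forward embryos at 5.85 to 19.2, and the crosses overlap for Mir669d.

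Sfmbt2 was compared with other paternally expressed genes of the noncanonical kind. A list of 10 such genes, which was put together with results of these data known, was paternal throughout. Of these, 10 of 10 were called toward the paternal allele, where 1.11% of all genes tested were. The median log2 fold change was 5.46 against -0.01 over all genes tested. As the results were known when the genes were chosen, these values are a description and not a test of the list. The range ran from 4.45 ± 0.64 (SE) for Smoc1, a secreted calcium-binding protein, to 8.48 ± 0.44 (SE) for Slc38a4, an amino acid transporter of the placenta. The remaining genes were Jade1 (5.28), Gab1 (5.20), Bbx (5.84), Epas1 (6.01), Otx2 (5.72), Slc38a1 (5.60), Rbms1 (4.79) and Mbnl2 (5.33), with the value of Otx2 resting on 0 maternal of 43 reads. The adjusted p-values of the list ran from 1.49e-11 to 0.0120 in edgeR's quasi-likelihood test, and the log2 fold change of Sfmbt2, at 7.50, lay between those of Slc38a4 and Epas1.

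Within embryos, the paternal share of Sfmbt2 was 0.374 ± 0.781 percentage points below that of Slc38a4 (SD of the difference, n = 8; lower in 3, equal in 4 and higher in 1 embryo). An exact sign-flip permutation test over embryos gave p = 0.375 (adjusted over 3 pairs, p = 0.375). Sfmbt2 was 2.29 ± 4.10 percentage points above Jade1, a chromatin gene of histone acetylation complexes (SD, n = 8; higher in 3, equal in 3 and lower in 2 embryos, adjusted exact permutation p = 0.375). It was 2.27 ± 3.90 percentage points above Gab1, a signalling adaptor (SD, n = 8; higher in 5, equal in 1 and lower in 2 embryos, adjusted exact permutation p = 0.234). Embryos with equal shares add nothing to this test, so that the smallest p before adjustment was 0.125 for Slc38a4, 0.0625 for Jade1 and 0.0156 for Gab1. The tests against Slc38a4 and Jade1 could therefore not pass 0.05, and the difference from Gab1 did not.

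The maternal reads of the list were unevenly spread over embryos, and those of Sfmbt2 were not spread in the same way. Summed over the 10 genes, 9.10% of reads were maternal in forward embryo 1, 5.83% in forward embryo 2 and 1.07% in forward embryo 3. In the reverse embryos 0.0419% to 1.10% were maternal. Forward embryo 1 was also the embryo with 696 RPM of leukocyte markers, 99.7% maternal, whose part in the maternal reads of the list was not tested. In forward embryo 1, Gab1 had 34 maternal of 304 reads and Smoc1 had 21 of 211, while Sfmbt2 had 2 of 684 and Slc38a4 had 1 of 197. Forward embryo 2, with 42.5 RPM of leukocyte markers, had 15 maternal of 199 reads for Gab1 and 27 of 171 for Smoc1. There Sfmbt2 had 7 of 276, its highest maternal share, and Slc38a4 had 1 of 166. These shares are given side by side and their difference was not tested.

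**Figure D4:**
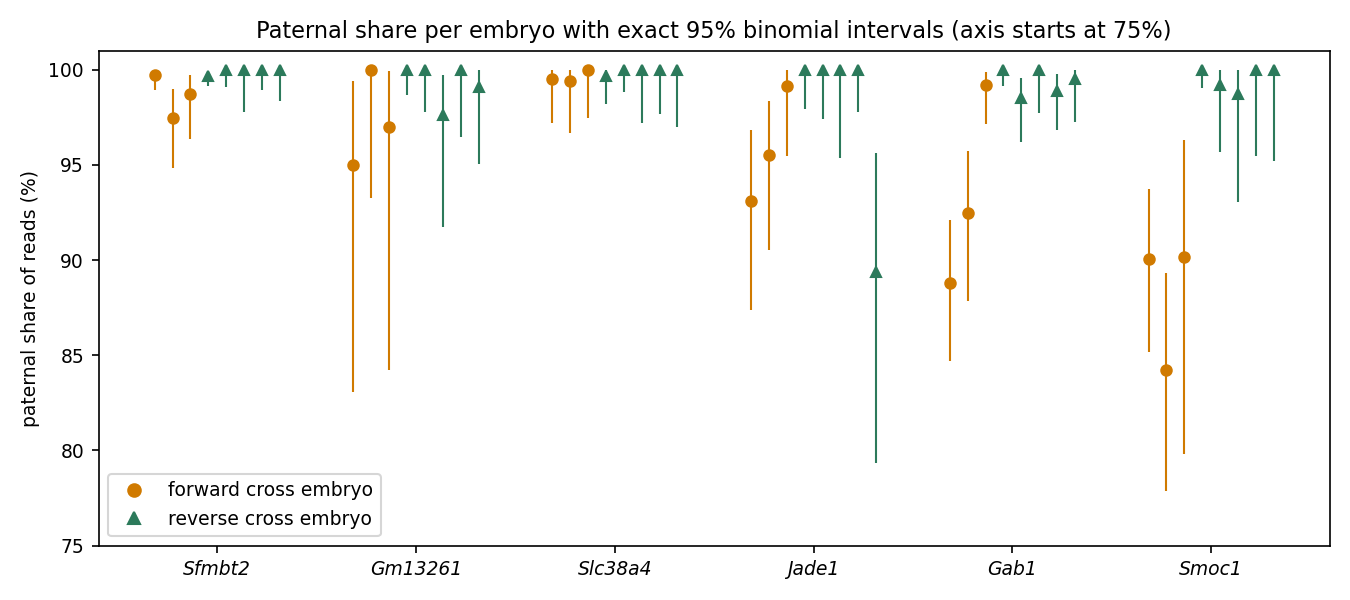
Paternal share of reads (y axis, percent, starting at 75%) in each embryo for Sfmbt2, Gm13261 and 4 other paternally expressed genes, with exact 95% binomial intervals as bars for forward (circles) and reverse (triangles) embryos. Sfmbt2 lies at 97.5% to 100% in every embryo. The lowest value is that of Smoc1 in forward embryo 2, at 84.2%, while Gab1 reaches 88.8% in forward embryo 1 and Jade1 reaches 89.4% in reverse embryo 7.

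The genes around the locus were examined for the same bias. Within 1 Mb of either end, 20 other genes were present, 8 were tested and 0 of the 8 were called between parents by edgeR's quasi-likelihood test, a count near the 1.42% called over all genes. Upstream, Itih5, an extracellular matrix protein gene that ends 114 kb before Sfmbt2, stood at a log2 fold change of 1.56 ± 0.55 (SE; adjusted p = 0.314, edgeR), the largest of the 8 toward the paternal allele. Its reads followed the strain, with a paternal share of 7.34% ± 9.58 (SD, n = 3) for the forward against 99.7% ± 0.710 (SD, n = 5) for the reverse cross, and the cast over B6 log2 fold change was -5.02 ± 0.60 (SE; adjusted p = 2.41e-06, edgeR).

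Further upstream, Kin, a DNA-binding protein gene, stood at -0.04 ± 0.36 (SE), and Atp5c1, a subunit of the mitochondrial ATP synthase, at 0.05 ± 0.26 (SE). Downstream, the nearest tested gene was Prkcq, a protein kinase C, 577 kb away, at -2.16 ± 1.51 (SE) with 37 reads in all. It was followed by Pfkfb3, a regulator of glycolysis, at 0.34 ± 0.66 (SE), and by the splicing factor gene Rbm17 at -0.28 ± 0.30 (SE). Pfkfb3 was the other gene of the window called for strain, with cast higher by a log2 fold change of 2.36 ± 0.68 (SE; adjusted p = 0.0239, edgeR). Over all genes 15.4% were called for strain. The rows between Itih5 and Prkcq that lie outside Sfmbt2 had too few reads for a test. Gm31496 had 0 maternal and 6 paternal reads, Gm39758 had 3 and 10, and Gm13264 had 1 and 1.

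**Figure D5:**
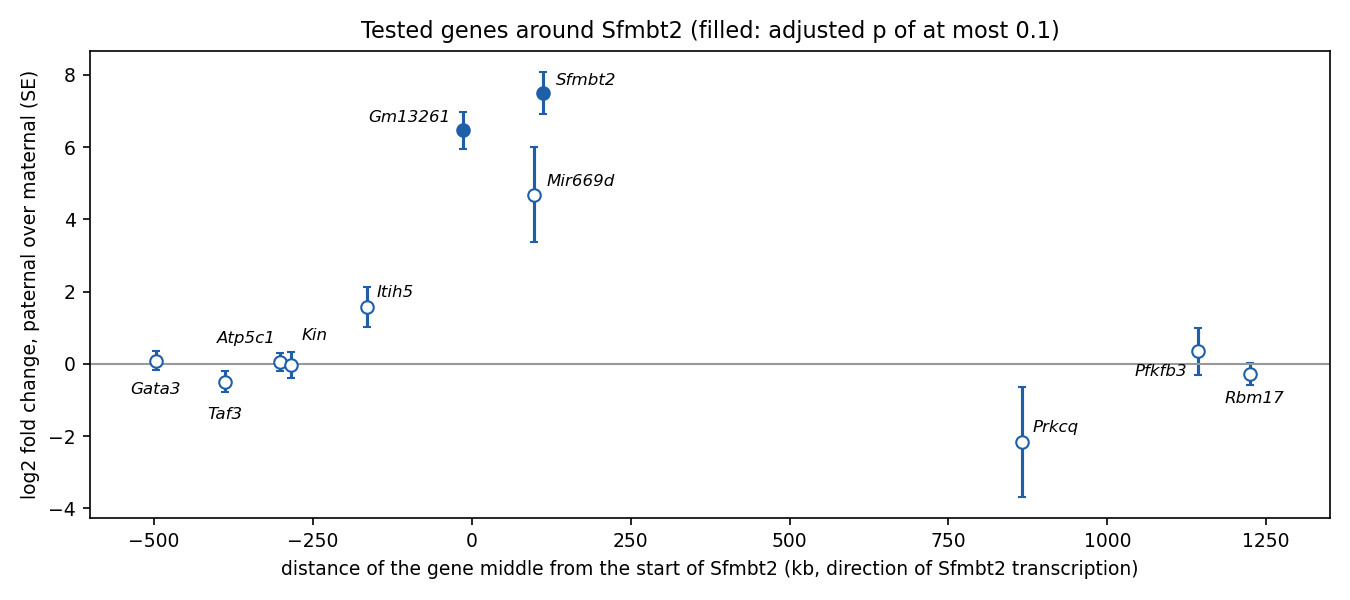
Log2 fold change of the paternal over the maternal allele (y axis, bars are SE) for the 11 tested genes within 1 Mb of Sfmbt2, against the distance of the middle of each gene from the start of Sfmbt2 in kb (x axis). Filled points are called at an adjusted p of at most 0.1, which are Sfmbt2 at 7.50 and Gm13261 at 6.46; Mir669d at 4.69 and the 8 genes outside are open.

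The partners and relatives of SFMBT2 were also examined. A list of 20 genes of MBT-domain and Polycomb proteins, which SFMBT2 works with or resembles, had 19 genes in the data and 15 tested. In edgeR's quasi-likelihood test 0 of the 15 were called between parents, where 1.42% of all genes were, and their median log2 fold change was -0.01, the same as over all genes tested. A count of 0 in a list of this size is near that share. Yy1, the DNA-binding partner, stood at 0.33 ± 0.42 (SE) with 104 maternal and 133 paternal reads. Sfmbt1 stood at -0.48 ± 0.47 (SE). For strain, 1 of the 15 was called, where 15.4% of all genes were. This was L3mbtl3, lower on the cast allele with a log2 fold change of -1.88 ± 0.39 (SE; adjusted p = 0.00203, edgeR). Between the crosses 0 of 16 genes tested were called, where 0.0688% of all genes were.

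In the marker lists, the parental call was that of Lyz2 toward the maternal allele (log2 fold change -7.38 ± 1.25 SE, adjusted p = 0.00122, edgeR), which was also called for strain (-5.52) and between crosses (-6.87). Lyz2 had 1144 maternal of 1149 reads. Forward embryo 1 held 1136 reads of the leukocyte list, against 5 to 49 in each other embryo. The calls of Lyz2 thus rest mostly on the same reads of 1 embryo and are not separate results. The calls for strain, cast over B6, were Krt8 (-1.72) and Id2 (-0.79) among 10 trophectoderm genes tested, Tdgf1 (-1.91) and Klf4 (0.85) among 10 inner cell mass genes, and Ovgp1 (-4.04) and Wfdc2 (0.95) among 5 uterus and oviduct genes. Over all genes 15.4% were called for strain, and the counts in the lists of 10 are near that share. The call of Ovgp1 rests on 17 reads over all embryos.

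The genes whose reads were most like those of Sfmbt2 over the 16 allele libraries, by Pearson's r of log2(RPM + 1) among 9938 genes with at least 80 reads, were Slc38a4 (r = 0.981), Gm33149 (0.965), Gm32885 (0.959), Dubr (0.958) and Gm35599 (0.954). All 5 had 2 to 7 maternal reads, and Slc38a4, Gm33149, Gm32885 and Gm35599 are on chromosome 15. Gm13261 ranked 30 (r = 0.917). These values are a description, in which the split into maternal and paternal libraries is shared by all paternally expressed genes.

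Over the totals of the 8 embryos the order was another. The most alike were Fyn (r = 0.990), a tyrosine kinase of the Src family, Vrk2 (0.985), Erlin1 (0.981), Dlg1 (0.979) and Map3k4 (0.979), each read from both parents. Without reverse embryo 1 their r over 7 embryos was 0.947 to 0.976 and their ranks were 3 to 24, so that they were no longer the 5 most alike. Gm13261 ranked 4220 of 9938 (r = 0.369) with the embryos of both crosses pooled, while it and Sfmbt2 were read from the same allele. Within the reverse cross Sfmbt2 and Gm13261 were both highest in embryo 1 (803 and 187 RPM) and lowest in embryo 3 (110 and 56.7 RPM). Within the forward cross embryo 1 was the highest for Sfmbt2 (419 RPM) and the lowest for Gm13261 (24.5 RPM).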

How the data were processed

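RNA of single blastocysts was prepared with a SMART-Seq2 compatible protocol. The deposited values are raw counts of SNP-covering reads per gene, embryo and strain. The authors aligned reads to mm10 with STAR (2.6.0c in the methods, 2.5.2b in the submitters' processing notes), left out multi-mapping reads and took the counts from an intermediate result of Allelome.Pro. Gene symbols were placed with GENCODE M21 (18286), RefSeq (2999) or RefSeq synonyms (417), and 1108 were not matched. X-linked and unplaced genes (0.809% of reads for the latter) were left out of the tests.

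Allele libraries were compared with edgeR 4.0.16 in R 4.3.3 (TMM, quasi-likelihood test, parent and strain as terms, Benjamini-Hochberg adjustment over all genes tested, threshold 0.1). Genes needed at least 10 reads in 1 library. Totals were compared between crosses in the same way. DESeq2 1.42.0 was an alternative. The parental term and the comparison between crosses in edgeR were tested on simulated data, in which libraries were drawn independently. The strain term, the fit with a term for each embryo, DESeq2 and the exact tests were not. Shares have exact Clopper-Pearson intervals, and a count of 0 was read against a floor of 3 counts, per embryo for Sfmbt2 and Gm13261 and over all embryos for Mir669d.

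The members and gene lists were chosen with earlier results of these data known. Genes named are the members, listed genes past the threshold, Sfmbt1 and Yy1, rows inside Sfmbt2, the 3 nearest tested genes on each side and the 5 most alike genes. Gm31496, Gm39758 and Gm13264 fall outside this rule and were named after their values were seen. The embryo is shared by its maternal and paternal libraries, whose deviations from the group means correlated with r of 0.0958 to 0.525. Each embryo is a separate animal, and litters were not given. No microRNA or protein sequence was used here.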

Additional observations from a re-analysis of the deposited data

Results flagged for a closer look

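Sfmbt2 in reverse embryo 1, at 802.6 RPM, lay far above the other 4 reverse embryos, with a gap to the next of 0.781 of the range of the group. The paternal share of Sfmbt2 in the same embryo, 99.67%, lay below the 100% of the others and rests on 4 maternal reads of 1208, the largest read number of the group. With 7 groups examined in this way, chance flags about 1 in 20 groups. That rate does not hold for the share, since with the others tied at 100% any maternal read in this embryo would give a flag. Its maternal share of 0.331% also lies below the 0.756% to 1.82% that counts of 0 allowed in the other embryos. Gm13261 was flagged by the strain term of the fit (-1.22, adjusted p = 0.0926, edgeR's quasi-likelihood test), with adjusted p-values of 0.0222 to 0.404 over its 16 alternatives. As all 8 embryos were paternal, this term mostly compares the level of the paternal allele between the crosses. With a term for each embryo, which compares the ratio of paternal to maternal reads, it was not called (-0.89, adjusted p = 0.403, edgeR).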

How the results depend on the processing

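Of 255 values recomputed under alternatives, 16 moved, 4 changed sign, 6 gained a call and 6 lost it. The other 223 kept their direction and their side of the threshold or, without a test, stayed close. The threshold was an adjusted p of 0.1 in the fits and of 0.05 in the exact tests, where no main result passed it. Before adjustment, the exact permutation p of Gm13261 per 100 Sfmbt2 reads was 0.0357. Without single embryos it was 0.0571 to 0.0952. The paternal calls of Sfmbt2 (log2 fold change 7.12 to 8.16) and Gm13261 (6.05 to 7.03) held under all 16 alternatives. Mir669d was called between parents with no filter on low counts (4.69, adjusted p = 0.0320, edgeR) and with X-linked and unplaced genes kept (4.69, adjusted p = 0.0753), was not tested with at least 10 reads in every embryo, and its strain term could not be fitted with a term for each embryo. Genes called between parents numbered 178, but 406 with no filter, 75 with at least 10 reads in every embryo, 524 with X-linked and unplaced genes kept, 391 with the replicate block of embryos and 306 with edgeR's other quasi-likelihood setting (legacy = FALSE). Genes called for strain numbered 1935, but 1064 with at least 10 reads in every embryo, 3212 with the replicate block, and 1206 to 2457 without single embryos (1206 without forward embryo 1). With 1 library size per embryo the median strain difference over all genes moved from -0.06 to -0.39 and the split of calls from 563 higher and 1372 lower on cast to 329 and 2291, where Gm13261 stood at -1.53. Between crosses 9 genes were called, but 136 with DESeq2, 143 with no filter, 17 with X-linked and unplaced genes kept, 21 with the block and 0 with at least 10 reads in every embryo (edgeR, 513 at an unadjusted p under 0.05). Without single embryos this count ran from 3 (forward embryo 1) to 160 (reverse embryo 1), with 53 without reverse embryo 3.

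The replicate block, under which the strain term compares ratios of paternal to maternal reads, changed the strain calls of Gm13261 (-0.89) and Sfmbt2 (-0.95). It changed no other call of the 3 genes. Between crosses the block used embryo numbers that are only shared names (r of deviations 0.0159 to 0.178), and Sfmbt2 stood at 0.11 under it. Without single embryos, the strain value of Gm13261 ran from -1.54 to -0.97 and its cross value from 1.45 to 2.03. Its cross value passed the threshold with DESeq2 (1.71), with no filter (1.68) and without reverse embryo 1. The cross value of Sfmbt2 ran from -0.39 to 0.53, its strain value from -0.76 to 0.22 (0.22 without reverse embryo 1), and the Mir669d difference per 100 Sfmbt2 reads from -0.143 to 0.540. The cause of these changes was not tested. Few embryos and, for Mir669d, few reads limit what could be detected.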
